A study of Mus musculus with 282 samples.

Results

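The p53 network was described in single mouse hematopoietic stem cells (HSCs) through 10 genes: Trp53, which encodes p53, its regulators Mdm2 and Mdm4, and 7 genes that p53 is known to activate, namely Cdkn1a, Ccng1, Phlda3, Zmat3, Sesn1, Eda2r and Trp53inp1. The genes were taken by symbol, and each matched 1 of the 49671 Ensembl gene rows of the deposited count table. The study sorted single bone marrow cells as LSK CD48-/lo CD150+, a gate for HSCs in which LSK means negative for lineage markers and positive for Sca-1 and Kit. The 6 mice were 12 to 22 weeks old and were used in 2 experiments. All carried R26 rtTA/rtTA, a doxycycline-dependent transactivator at Rosa26, together with Col1A1 H2B-GFP/H2B-GFP, a histone-GFP transgene for tracking divisions. None was induced with doxycycline, so every cell belonged to 1 group without a treated counterpart.

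Of 282 cells, 232 had at least 100000 gene counts and 1000 genes and were kept. Their median was 280096 counts (116009 to 1680710). The labels split the cells by library series (29 or 32) and by an HSC code into 6 sets. Those of series 29, L29 HSC-3 and L29 HSC-4, had 46 and 43 kept cells, and those of series 32, L32 HSC-2 through HSC-5, had 22, 44, 38 and 39. The labels do not tie a cell to a mouse, and whether each set is 1 animal is unknown. Cells of L29 HSC-4 differed from the rest: their median number of genes was 4151 (5126 to 5686 elsewhere), and mitochondrial reads made up 6.66% (elsewhere 3.28% to 3.73%). The HSC markers Hlf, Mecom and Procr were found in 74.6%, 59.9% and 55.6% of cells, Tal1 in 37.5%, and Slamf1, which encodes the CD150 of the gate, in 19.4%. None of the B, T and NK, myeloid or mast cell markers reached 10% of cells, while 3 of 4 megakaryocyte, 1 of 5 erythroid and 1 of 4 endothelial or stromal markers did.

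p53 is a transcription factor that is held at a low level by protein degradation and accumulates after DNA damage and other stress. Mdm2 is the ubiquitin ligase that marks p53 for degradation, and Mdm4 binds p53 and restrains its activity, while Mdm2 is also a p53 target, which closes a feedback loop. In HSCs p53 is known for its part in quiescence and in the response to irradiation, and because it is set largely at the protein level, the mRNA of Trp53 and the mRNAs of its targets are separate readouts.

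p53 binds DNA at a response element made of 2 half-sites of 10 bases each. The windows from 250 bases before to 50 bases after RefSeq gene starts (GRCm38.p6) were searched for 2 adjacent half-sites with the C and G core of each intact and at most 1 other base off the consensus, an allowance chosen after the windows were seen. Since the consensus is its own reverse complement, 1 search covers both strands. Windows were given for 8 of the 10 genes, 11 windows in all, and 2 of the 11 held such an element, as did 22 of all 32851 windows (0.0670%). With up to 2 bases off, the same 2 windows and 107 of all windows (0.326%) held one, and a single half-site without mismatch lay in 5 of the 11 and in 8.36% of all. The elements lay in front of the arrest genes Cdkn1a and Ccng1, which differed widely in detection (below), and are shown in capitals within 120 bases on the strand of the gene. The Cdkn1a stretch (chr17:29090859-29090978, plus strand) ends at the base before the more upstream of its 2 RefSeq starts, and its element begins 51 bases before that start. The Ccng1 stretch (chr11:40755412-40755531, minus strand) holds an element that begins 195 bases before the start.
Cdkn1a: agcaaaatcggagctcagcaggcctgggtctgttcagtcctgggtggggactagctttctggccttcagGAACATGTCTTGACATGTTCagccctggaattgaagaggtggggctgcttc
Ccng1: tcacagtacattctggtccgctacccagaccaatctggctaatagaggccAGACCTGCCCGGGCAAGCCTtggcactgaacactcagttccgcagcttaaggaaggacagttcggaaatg

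Detection meant at least 10 CPM (gene counts scaled to the same total in every cell), which is 2.8 reads in the median cell. At this level 6 of the 10 genes were found in at least 10% of cells, as were 27.5% of the 35274 genes with any read. The network thus fell into 6 genes that many cells carried and 4, Cdkn1a, Phlda3, Zmat3 and Eda2r, that few cells carried. Intervals below are exact Clopper-Pearson 95% intervals and cover counting error only, since reads were not tagged by molecule.

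Trp53 (chr11:69580359-69591873) was the most widely found of the 10. It was detected in 179 of 232 cells (77.2%, interval 71.2% to 82.4%). By set the share was 73.9% in L29 HSC-3, 53.5% in L29 HSC-4, 90.9% in both L32 HSC-2 and L32 HSC-3, 78.9% in L32 HSC-4 and 82.1% in L32 HSC-5. All 4 sets of series 32 lay above both sets of series 29, and L29 HSC-4, the set with the fewest genes per cell, was the lowest. Without that set the share was 82.5%. Thinning every cell to 100000 counts, with 1 read as detection, left L29 HSC-4 at 55.8% against 76.1% to 93.2% in the others. At that depth its cells still had the fewest genes, a median of 3433 against 4107.5 to 4452.5 in the other sets. Carriers in L29 HSC-4 held a median of 529 CPM of Trp53. In the cells that carried it Trp53 stood at a median of 358 CPM (quartiles 177 and 568), and the mean over all cells was 312 CPM, or 320 ± 67 (SD, n = 6 sets).

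Of the 2 regulators, Mdm4 was detected in more cells and Mdm2 stood at the higher level per length. Mdm2 (chr10:117688888-117710758) was found in 74 cells (31.9%, interval 25.9% to 38.3%), with 30.4%, 14.0%, 22.7%, 36.4%, 50.0% and 35.9% in the sets in the order given above. Mdm4 (chr1:132959484-133030561) was found in 109 cells (47.0%, interval 40.4% to 53.6%), with 65.2%, 32.6%, 40.9%, 43.2%, 60.5% and 35.9% in the same order. Both genes were lowest in L29 HSC-4, and the sets of the 2 library series overlapped. A cell with Mdm2 carried a median of 322 CPM, and one with Mdm4 carried 120 CPM. Scaled by gene length as well (TPM, computed from the deposited counts and lengths), Mdm2 had a mean of 43.8 TPM and Mdm4 of 11.4 TPM, since the Mdm4 model is 14798 bp long and that of Mdm2 5070 bp. Mdm2 was higher than Mdm4 per length in the mean over all cells, yet fewer cells carried it.

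The 2 arrest genes stood far apart. Cdkn1a (chr17:29090979-29100722), which encodes the cyclin-dependent kinase inhibitor p21, was detected in 6 of 232 cells (2.59%, interval 0.955% to 5.54%). It was found in 4 cells of L32 HSC-3 and 1 each of L29 HSC-4 and L32 HSC-5, and in none of L29 HSC-3, L32 HSC-2 and L32 HSC-4, which, with 3 cells of the total taken as the limit for a count of 0, allows up to 6.52%, 13.6% and 7.89% there. Without L32 HSC-3 the share was 1.06%. The cells that carried it held 25.9 to 174 CPM, from 3 to 40 reads. Ccng1 (chr11:40748552-40755311), which encodes cyclin G1, a p53 target that recruits a phosphatase to Mdm2, was detected in 84 cells (36.2%, interval 30.0% to 42.8%). Its share was 32.6% in L29 HSC-3 and 14.0% in L29 HSC-4, and 36.4%, 47.7%, 42.1% and 46.2% in the 4 sets of series 32, so that the 2 series did not overlap. In its carriers Ccng1 stood at a median of 281 CPM.

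Sesn1 (chr10:41809935-41908424), which encodes sestrin 1, a stress protein that restrains mTORC1 signalling, was the most widely found target. It was detected in 127 cells (54.7%, interval 48.1% to 61.3%), and the sets ran from 43.5% to 71.1% with a median of 51.1%. The 2 highest sets were L32 HSC-4 and L32 HSC-5, and the 2 lowest were those of series 29. A carrier held a median of 421 CPM, the highest of the 10 genes.

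Trp53inp1 (chr4:11156431-11174379), which encodes a p53-induced nuclear protein with roles in autophagy and cell death, was found in 35 cells (15.1%, interval 10.7% to 20.4%). Its share ran from 6.98% to 31.6% over the sets, with a median of 13.3%, and L32 HSC-4 and L32 HSC-2 were highest. The 12 cells with the most Trp53inp1 held 72.4% of its summed CPM, against 18.0% for Trp53 and 24.4% for Sesn1. This share depends on the number of carriers, which was 35 for Trp53inp1, 179 for Trp53 and 127 for Sesn1.

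The other 3 targets were found in few cells, in which their median level was well above the 10 CPM of detection. Zmat3 (chr3:32334792-32366014), which encodes an RNA-binding zinc finger protein, was found in 9 cells (3.88%, interval 1.79% to 7.24%) of 5 sets, at 25.9 to 175 CPM. Eda2r (chrX:97333840-97377216), the receptor for ectodysplasin A2, was found in 6 cells (2.59%) of 5 sets. Phlda3 (chr1:135766119-135769136), which encodes a pleckstrin homology domain protein that restrains Akt, was found in 3 cells (1.29%, interval 0.267% to 3.73%), 1 in each of the codes HSC-3, HSC-4 and HSC-5 of series 32, with 47 and 67 reads in 2 of them and 19 in the third. With a single read as detection Zmat3 was in 11.6% of cells, Cdkn1a in 6.03%, Eda2r in 5.60% and Phlda3 in 3.02%.

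**Figure D1:**
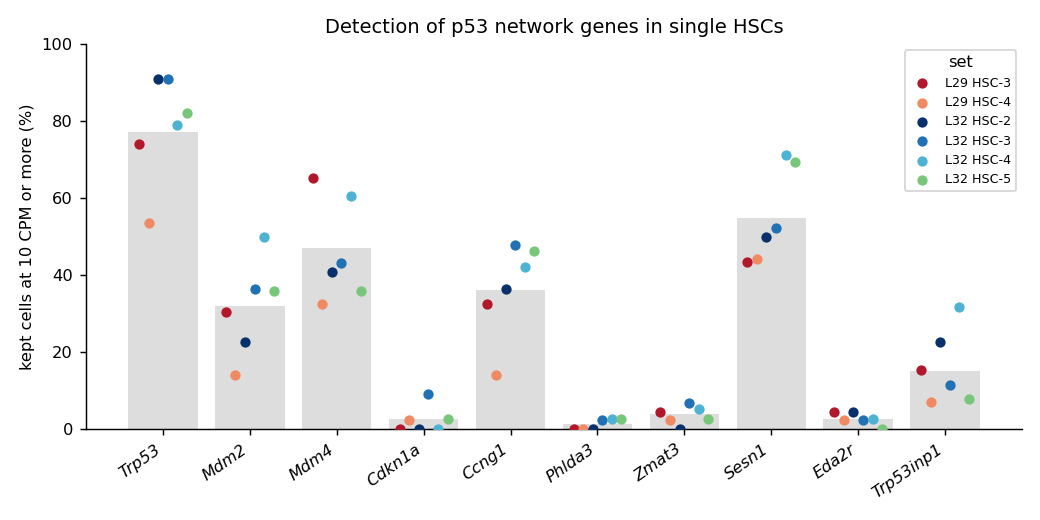
Share of kept cells (percent, y axis) in which each of the 10 genes reached 10 CPM. Grey bars give the share over 232 cells and points the 6 sets; Trp53 is highest at 77.2%, and Cdkn1a, Phlda3, Zmat3 and Eda2r lie under 4% over all cells.

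Per length, the order of the mean levels was Trp53 (141 TPM), Sesn1 (121), Ccng1 (59.9), Mdm2 (43.8), Trp53inp1 (12.0), Mdm4 (11.4), Phlda3 (1.63), Cdkn1a (1.598), Eda2r (0.957) and Zmat3 (0.691). Only the steps from Mdm2 down to Trp53inp1 and from Mdm4 down to Phlda3 held in 6 of 6 sets. Trp53 exceeded Sesn1 in 4 sets, Sesn1 exceeded Ccng1 in 5, Ccng1 exceeded Mdm2 in 4 and Trp53inp1 exceeded Mdm4 in 4, and the order among the 4 rare genes held in 3 of 6 sets at each step. The 10 genes therefore formed 3 tiers, and inside a tier the order of neighbours was not the same in all sets. Genes farther apart in a tier could keep their order, as Trp53 exceeded both Ccng1 and Mdm2 in every set.

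Mdm2, Sesn1, Ccng1 and Trp53inp1 were each found in fewer cells than the curve of share on mean CPM over 16023 genes gave for their level. At its mean of 119 CPM the curve gave Mdm2 48.4% of cells against 31.9% measured, and at 260 CPM it gave Sesn1 71.8% against 54.7%. For Ccng1 the difference was -10.3 points and for Trp53inp1 -11.0 points, and each of these 4 lay below the curve in 6 of 6 sets. Trp53 (+0.36 points) and Mdm4 (+4.65 points) did not lie below it. Most of all genes lay below this curve too, since Cdkn1a, at -0.046 points, was at percentile 70.2 of the 16023 genes. Of the 500 genes nearest in mean CPM, 7 had a lower share than Mdm2, 47 than Sesn1, 98 than Ccng1 and 54 than Trp53inp1. The differences depended on the scale of the level, a comparison added after the data were seen. Against the curve on mean TPM, Mdm2 lay at -4.26 points, Sesn1 at -4.01, Ccng1 at -6.24 and Trp53inp1 at -2.10, while Trp53 lay at 14.5 and Mdm4 at 30.4 points above.

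**Figure D2:**
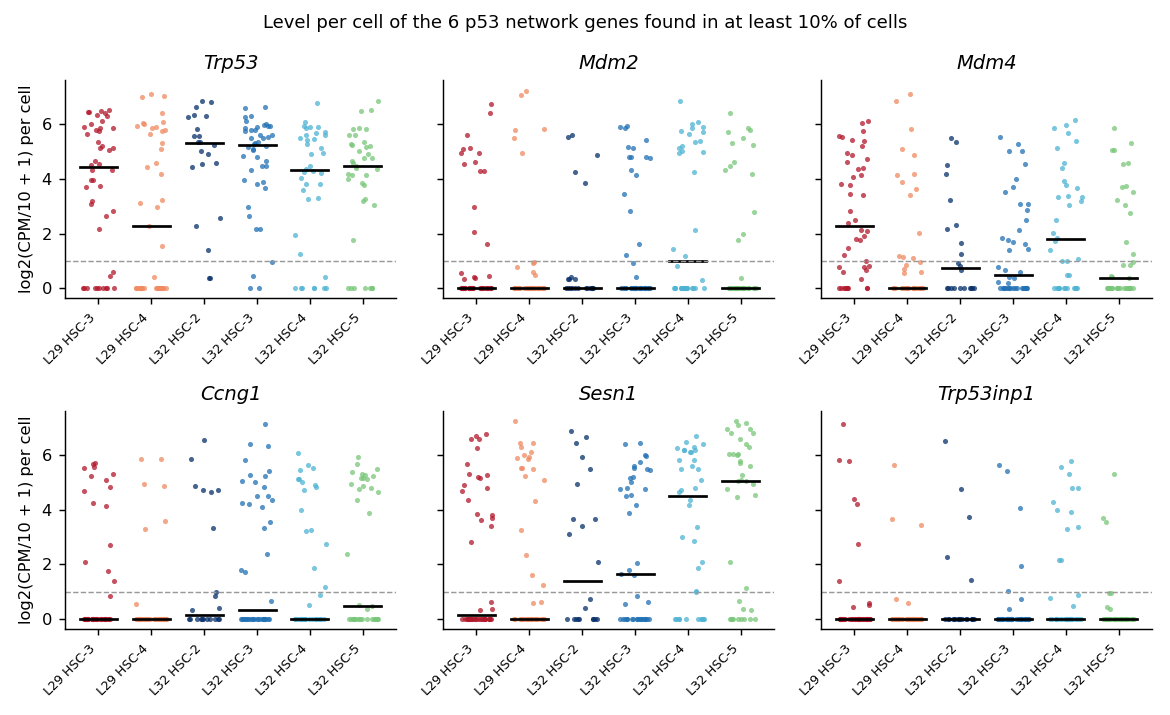
Level per cell, log2(CPM/10 + 1) on the y axis, of the 6 genes found in at least 10% of cells, by set. Each point is a cell, black lines are set medians and the dashed line is 10 CPM; Trp53 has its median above the line in all 6 sets, and most cells lie at or near 0 for Trp53inp1.

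A background reading came from 38 near-empty wells on plate 2 of library series 32, codes HSC-2 and HSC-3, in which spike-in reads outnumbered gene reads, with 616795 gene reads in all. Trp53 stood there at 42.2 CPM (26 reads) against 422 CPM in the 66 cells kept from these sets, Ccng1 at 32.4 against 161, Sesn1 at 61.6 against 198, Mdm2 at 21.1 against 89.3 and Trp53inp1 at 6.49 against 74.3 CPM. These 5 genes took a larger share of the reads in kept cells. CPM is such a share, and the median near-empty well held 8794 gene reads, the median kept cell of all sets 280096. Mdm4 stood closer, at 24.3 against 49.4 CPM. Zmat3 took a larger share of the reads in the near-empty wells than in the 66 kept cells of both plates, with 22.7 CPM (exact Poisson interval 12.4 to 38.1) against 3.77 CPM. These were 92 reads in the 66 kept cells against 14 reads in 7 of the near-empty wells. Of the 66 kept cells only 20, all of L32 HSC-3, lay on plate 2 like the near-empty wells. In these 20 cells Zmat3 stood at 15.9 CPM, within the interval of the near-empty wells. Cdkn1a and Eda2r had 1 read each in the near-empty wells (1.62 CPM, exact Poisson interval 0.041 to 9.03). This interval holds their 3.24 and 1.02 CPM in the 66 kept cells of both plates. Phlda3 had none, which with 3 reads taken as the limit allows up to 4.86 CPM, above its 2.83 CPM in the 66 kept cells. In the 20 kept cells of plate 2, Cdkn1a stood at 13.5 CPM and Phlda3 at 12.1 CPM, above these limits, and Eda2r at 0 CPM. Cdkn1a had 4 carriers there and Phlda3 had 1. No gene of the 10 shared exon bases with another row of the table, and the pseudogenes Trp53-ps and Mdm4-ps held 212 and 87 reads in kept cells against 25776 and 6508 for Trp53 and Mdm4.

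The next question was whether the genes were found in the same cells. A cell carried a mean of 2.72 of the 10 genes, and the set means ran from 1.72 in L29 HSC-4 to 3.45 in L32 HSC-4. No gene was found in 14 cells, and 1 cell had 7, the most of any. The product of the shares within each set, which is what genes found independently of each other would give, came to 6.73 cells without any and 0.197 cells with 7. Trp53, Mdm2 and Mdm4 were found together in 35 cells, and 53 cells had no detected Trp53. Depth and the number of genes found are common to all 10 genes of a cell.

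Among the 15 pairs of the 6 common genes, joint detection was close to the product. Summed over the pairs, 686 joint detections stood against 660 (ratio 1.04, also 1.04 after thinning), and 10 of the 15 pairs lay above the product. The ratios ran from 0.719 to 1.15. Trp53 and Trp53inp1 were found together in 32 cells against 27.8 and lay above the product in 6 of 6 sets. Mdm4 and Trp53inp1 were found together in 13 cells against 18.1 and lay below it in 6 of 6 sets. After thinning these ratios were 1.12 and 0.826. Trp53inp1 had 7, 3, 5, 5, 12 and 3 carriers in the 6 sets, so the direction in a set can rest on few cells. These 2 pairs were picked out of 15, and neither was tested. The other 13 pairs, among them Mdm2 with Mdm4 at 41 cells against 36.6 and Mdm2 with Trp53 at 64 against 59.1, did not keep 1 direction in all 6 sets.

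**Figure D3:**
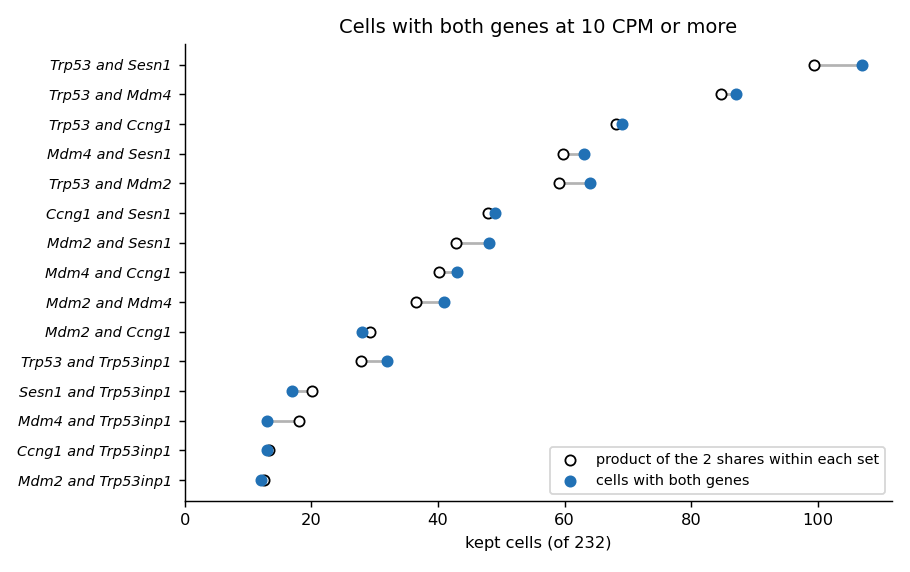
Number of kept cells (x axis, of 232) with both genes at 10 CPM or more for the 15 pairs of the 6 common genes. Filled points are measured counts and open points the product of the 2 shares within each set; Trp53 and Sesn1 has the most joint cells, and Mdm4 and Trp53inp1 lies farthest below its product in relative terms.

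The 4 rare targets were found in 21 cells between them (9.05%), and 2 of these cells carried more than 1. One cell of L32 HSC-3 held Cdkn1a, Phlda3 and Zmat3 at 44.6, 111 and 99.2 CPM, together with Trp53, Mdm4 and Ccng1. Another cell of L32 HSC-3 held Cdkn1a (3 reads) and Zmat3 (4 reads) beside Trp53, Mdm2, Mdm4, Ccng1 and Sesn1, and was the cell with 7 genes. It was also the kept cell with the fewest counts, 116009, so that fewer reads reached 10 CPM in it than in any other. It lay on plate 2, as did the near-empty wells. All 6 cells with Cdkn1a also had Trp53, where the product gave 4.99.

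Levels of the 6 common genes were set beside 4 measures of each cell: a cell cycle score, an HSC identity score, gene reads per spike-in read and the mitochondrial share. Partial Spearman correlations, given the ranks of genes detected and of total counts, were computed across the cells of each set and averaged over the 6 sets. The 24 values ran from -0.088 to 0.154 with a median size of 0.037, and none kept 1 sign in 6 of 6 sets. The highest was that of Mdm2 with the HSC identity score, at 0.154 ± 0.170 (SD, n = 6 sets). Trp53 stood at -0.056 with the cell cycle score and Trp53inp1 at 0.119. Correlations of this size in sparse counts are given as a description and are no finding. Between the common genes themselves, Trp53 with Trp53inp1 gave 0.181 and Mdm4 with Trp53inp1 -0.170, and only these 2 of 15 pairs had 1 sign in 6 sets. Both values come from the same cells as the joint detection above, with 35 carriers of Trp53inp1 over all sets.

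The genes most like each common gene, by the same averaged correlation over 7930 genes and 6 sets, reached 0.236 to 0.300. They were Rpsa, Cdc37 and Adck1 for Trp53, Gimap5, Pcsk7 and Taf1d for Mdm2, Spns1, Ddx6 and Dock10 for Mdm4, Eapp, Uimc1 and Vim for Ccng1, Spata13, Yipf4 and Ube3c for Sesn1, and Rps19bp1, Scrn2 and Ube2w for Trp53inp1. The largest was that of Mdm4 with Spns1 (0.300 ± 0.138, SD over 6 sets). The 99th percentile over all genes lay between 0.163 and 0.183, and none of the 18 nearest genes belonged to the 10. The cells compared share library, plate and depth, and these names are the top of a long list of weak values.

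Around the 10 genes, 55 further genes of the p53 pathway were examined in 7 lists, and 27 of them reached 10% of cells. Activators and cofactors of p53 were found most often, 13 of 14. The acetyltransferase Crebbp was in 47.4% of cells, the Mdm2-binding ribosomal proteins Rpl5 and Rpl11 in 97.8% and 99.6%, and the deubiquitinase Usp7 in 36.6%. Rpl5 and Rpl11 stood at 117 and 152 CPM in the near-empty wells against 117 and 91.5 CPM in the cells kept from their sets. Their share of the reads was thus no larger in kept cells, which does not compare reads per well with reads per cell. The exception was Cdkn2a, the locus of the Mdm2 inhibitor Arf, with 1 read in total and 0 of 232 cells, which, counted as 3 cells, allows up to 1.29%. Among the p53 family and other negative regulators 3 of 7 reached 10%: the ubiquitin ligases Rchy1 (48.3%) and Rfwd2, also called Cop1 (22.8%), and the deacetylase Sirt1 (10.3%), followed by the phosphatase Ppm1d at 8.19%. Of these 7 genes 4 had a higher CPM in the near-empty wells than in the cells kept from their sets, among them Rfwd2 at 30.8 against 29.3 CPM.

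The target lists differed in how many genes were found. None of the 8 further genes of the arrest list, of which not all need be direct p53 targets, reached 10% of cells. The 4 with the highest mean were the kinase Plk2 (7.33% of cells), the cyclin-dependent kinase inhibitor Cdkn1b (6.90%), Btg2 (2.16%) and Gtse1 (2.16%). Of 11 cell death targets 5 reached 10%, led by Siva1 (46.1%), the pore-forming Bax (41.4%), the nuclease Aen (21.1%) and Ei24 (16.4%). Of 5 repair and nucleotide targets 4 did, with the damage sensor Xpc at 29.7%, the ribonucleotide reductase subunit Rrm2b at 15.5%, Ddb2, which recognises damaged DNA, at 12.9% and the polymerase Polk at 12.5%, while the endonuclease Ercc5 was at 8.62%. Of 8 metabolism and stress targets the ribosomal protein Rps27l was at 91.8%, with 268 CPM in the background wells and 198 CPM in the cells kept from their sets, and Sesn2, Ephx1 and Tigar lay under 7%. Of 2 genes linked to p53 and HSC quiescence Ndn, which encodes necdin, was at 39.7% and had 159 CPM in the background wells and 176 CPM in the cells kept from their sets, and Gfi1 was at 4.74%. Cdkn1a, at 2.59%, lay within the range of the 8 genes of the arrest list (1.29% to 7.76%). Of the 8 metabolism and stress targets, Rps27l was the 1 found in more cells than Sesn1.

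**Figure D4:**
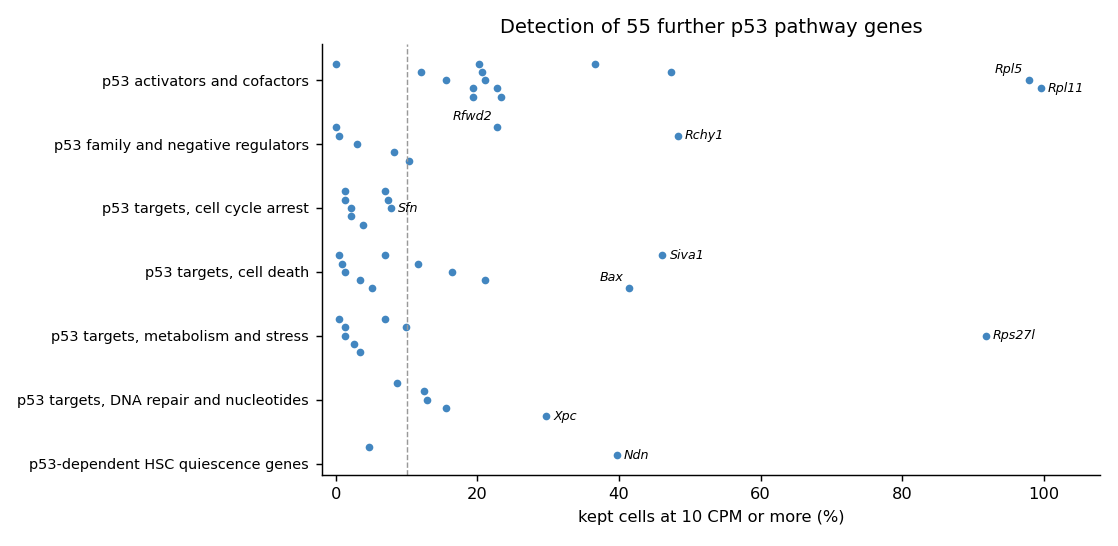
Share of kept cells (percent, x axis) at 10 CPM or more for 55 further p53 pathway genes, 1 point per gene, in 7 lists. The dashed line is 10%. All 8 genes of the arrest list lie left of it, and 13 of 14 activators and cofactors lie right of it.

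The labels allow 1 comparison over all sets, library series 32 (4 sets) against 29 (2 sets), for which the labels give only the library number. Whether the series also differ in animals or in experiment is not given, and such differences cannot be told apart. P-values measure only the spread between the sets, which may be technical. In counts summed over each set, Ccng1 stood at 83.9 CPM in L29 HSC-3 and 49.1 in L29 HSC-4 against 150, 169, 118 and 148 CPM in L32 HSC-2 to L32 HSC-5. Every set of series 32 was above both of series 29. The log2 fold change was 1.22 ± 0.30 (SE), with p = 0.00584 before and 0.373 after Benjamini-Hochberg adjustment over all genes in edgeR's quasi-likelihood test. DESeq2 gave 1.27 with an adjusted p of 0.00377, so the call depends on the tool, and without L29 HSC-4 edgeR gave 0.93 (adjusted p = 0.839).

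No gene of the 10 passed in edgeR, and of 16476 genes tested 0 were called (0%), with 1433 at an unadjusted p under 0.05, while DESeq2 called 713 of 17473. Phlda3 had the largest fitted change, 5.40 ± 1.98 (adjusted p = 0.520), from 0 and 1 reads in the 2 sets of series 29 and 1, 68, 19 and 48 in those of series 32, nearly all of the latter in 3 cells. The ratio of summed CPM was 58.9 with an exact counting interval of 10.4 to 2343, and the fitted value depends on the prior count. That interval takes reads as independent and does not measure the spread between cells or sets. Trp53 stood at 327 and 287 CPM in series 29 and at 523, 354, 350 and 262 CPM in series 32, which overlapped (0.36 ± 0.31, adjusted p = 0.773). Mdm4 stood at 148 and 88.7 against 53.8, 46.4, 93.8 and 87.7 CPM (-0.66 ± 0.40, adjusted p = 0.672). Of the 10 genes 7 had a positive fold change, with a median of 0.54 against 0.07 over all genes tested. Scaling to spike-in reads moved the median of all genes to -0.59 and that of Ccng1 to 0.46 (adjusted p = 0.742), and turned Trp53, Mdm2 and Trp53inp1 negative at -0.33, -0.58 and -0.25.

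Of the 55 further genes edgeR called 0 and DESeq2 called 3 in this comparison. Over all genes DESeq2 called 713 of 17473, a share close to that among the 55, so the count is no result about the pathway. The acetyltransferase Kat5 stood at 16.9 and 8.02 CPM in series 29 against 44.5, 33.8, 64.2 and 57.3 in series 32. Plk2 had 0.147 and 0.382 CPM against 53.9, 139, 5.01 and 31.7. Plk3, a related kinase, went the other way, with 15.9 and 14.0 CPM in series 29 and no reads in the 4 sets of series 32. Plk2 was detected in 7.33% of cells, and Plk3 in 1.29%, which is 3 of 232 cells. In edgeR their adjusted p-values were 0.373, 0.365 and 0.340.

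Within series 32 the codes HSC-3, HSC-4 and HSC-5 each had kept cells on plates 1 and 2, which allowed a comparison within code. Zmat3 stood at 0.110, 0.102 and 0.0937 CPM on plate 1 and at 15.9, 11.9 and 6.93 CPM on plate 2. It was higher on plate 2 in 3 of 3 codes, and all 6 of its carrier cells of series 32 lay on plate 2. The log2 fold change was 6.44 ± 1.15 (p = 0.00384, adjusted p = 0.999 in edgeR), and in DESeq2 the adjusted p was 0.00892. It rested on 1 read in each code on plate 1 against 155 reads on plate 2, nearly all of them in the 6 carrier cells. The ratio of summed CPM was 120 with an exact counting interval of 40.2 to 586. That interval takes reads as independent and does not measure the spread between cells or codes. The near-empty wells, with Zmat3 at 22.7 CPM, also lay on plate 2, but only in HSC-2 and HSC-3, and their part in the result was not tested. Series 29 held 3 further cells with Zmat3 at 88.8 to 154 CPM.

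Cdkn1a showed a similar distribution, with 0.331, 0 and 0 CPM on plate 1 against 13.5, 0 and 4.71 CPM on plate 2, and all 5 of its carriers in series 32 lay on plate 2 (5.67 ± 1.76, adjusted p = 0.999 in edgeR). The fitted value depended on few reads, and without HSC-3 or without HSC-5 Cdkn1a fell under the filter on low counts. Eda2r fell under it with all codes. The other 7 genes tested had adjusted p-values of 0.999, and their fold changes included -0.40 ± 0.48 for Trp53, 0.44 ± 0.33 for Mdm2 and -0.03 ± 0.27 for Ccng1. Of 14509 genes edgeR called 0 (0%), with 632 at an unadjusted p under 0.05, and DESeq2 called 178 of 13184. The 9 genes tested had 4 positive fold changes and a median of -0.03, against -0.09 over all genes. Of the 55 further genes edgeR called 0 and DESeq2 called Ercc5.

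**Figure D5:**
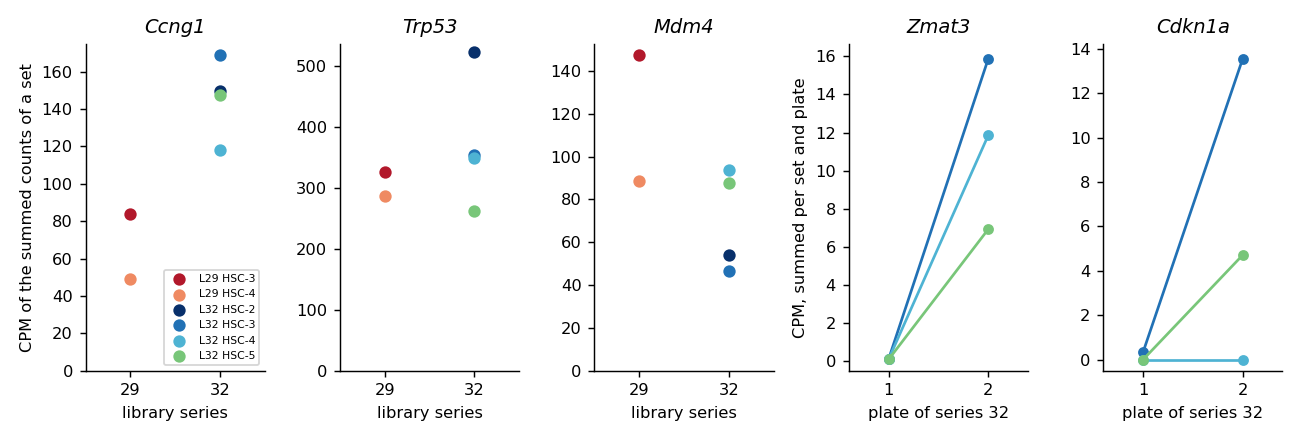
CPM of summed counts (y axes): Ccng1, Trp53 and Mdm4 by library series, 1 point per set, and Zmat3 and Cdkn1a by plate within 3 codes of series 32, joined by code. The 4 sets of series 32 lie above both sets of series 29 for Ccng1 and overlap them for Trp53 and Mdm4, and Zmat3 is higher on plate 2 in all 3 codes.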

How the data were processed

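From poly(A) RNA of single cells the authors made and deposited read counts, with genes as rows and cells as columns. Per the submitters' processing notes, GSNAP and featureCounts (1.6.2) were used with mm10; the table's name gives Ensembl release 87. The handling of strand and of reads with several loci: not given in the sources used here. Spike-in rows stayed out of totals and tests. Kept cells had at least 100000 gene counts and 1000 genes. CPM, TPM and log2(CPM/10 + 1) were computed from the deposited counts in Python 3.11.15 with pandas 2.3.3 and scipy 1.17.1, and detection meant 10 CPM. Comparisons used counts summed over the kept cells of each set (or set and plate, with the code as covariate), edgeR 4.0.16 (TMM, filterByExpr, quasi-likelihood test, Benjamini-Hochberg at 0.05) in R 4.3.3, with DESeq2 1.42.0 as an alternative. All scripts that tested many genes were tested on simulated data.

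Named were all 10 genes, the 4 genes of each pathway list with the highest mean CPM, genes past an adjusted p of 0.05, and the 3 genes most like each common gene. Cdkn2a, and the genes called by DESeq2 alone, fall outside this rule and were chosen after their values were seen. The 10 genes and the lists were chosen with earlier results of these data known. The 50 cells under the filter were not analysed further, apart from the 38 near-empty wells. Further alternatives changed the detection level, the cell filter, the depth, the scaling, the filter on low counts and the sets included. Some marker genes are not reported here.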

Additional observations from a re-analysis of the deposited data

Results flagged for a closer look

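Of 40 groups of set values examined (the share and the mean CPM of each of the 10 genes, over 6 sets and over the 4 sets of series 32), 4 had a set far from the others by Dixon's criterion. Chance marks about 1 in 20 groups of independent normal values. The groups here overlap and some rest on few cells, so 4 of 40 cannot be set against that rate. Mdm2 had a mean of 205 CPM in L32 HSC-4, where the next set had 117 CPM and the lowest 69.2 CPM, and in that set its summed counts gave 154 CPM on plate 1 and 181 CPM on plate 2. Cdkn1a was detected in 9.09% of cells of L32 HSC-3, where the next set had 2.56%, and its mean there was 6.50 CPM, where the next set had 1.82 CPM. All 4 of these carriers lay on plate 2. Phlda3 was found in 0% of the 22 cells of L32 HSC-2, which, counted as 3 cells, allows up to 13.6%, against 2.27% to 2.63% in the other 3 sets of series 32, each of which had 1 such cell.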

How the results depend on the processing

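The count of 6 genes found in at least 10% of cells was 7 with 1 read as detection and 6 under the other settings run, including each left-out set. The mean number of genes per cell was 3.30 with 1 read as detection, and between 2.58 and 2.95 without 1 set. The co-detection ratio stayed between 1.03 and 1.05 without 1 set. Against the 0 genes of edgeR, DESeq2 called 713 genes between the library series and 178 between the plates, and for the library series edgeR without a filter on low counts called 2 and with cells within 3 median absolute deviations (211 cells) called 1; the cause was not tested. Leaving out any 1 set gave 0 calls in both comparisons.

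Signs turned for fold changes that passed no test. Between the library series, spike-in scaling gave Mdm2 -0.58, Trp53 -0.33 and Trp53inp1 -0.25, and the stricter cell filter gave Trp53inp1 -0.21. Without 1 set, Cdkn1a ran from -0.77 to 2.87, Eda2r from -2.22 to 2.30, Mdm2 from -0.27 to 0.24 and Trp53inp1 from -0.0074 to 2.29. Between the plates, Ccng1 was 0.0198 with DESeq2, 0.0238 with edgeR's RLE size factors, 0.0197 without the covariate and 0.19 with the stricter cell filter, Sesn1 was 0.10 with that filter, and without the covariate Mdm4 was 0.0426 and Phlda3 0.88. Without 1 code, Ccng1 ran from -0.23 to 0.14, Mdm4 from -0.95 to 1.04, Phlda3 from -7.47 to 1.88 and Trp53 from -0.94 to 0.17. Ccng1 between the series and Zmat3 between the plates kept their sign in all 13 and all 9 alternatives and passed in DESeq2 alone. A kept sign was not particular to them. Mdm4, Phlda3, Sesn1 and Zmat3 between the series, and Mdm2 and Trp53inp1 between the plates, also kept theirs and passed in neither tool. Cdkn1a between the plates did so in the 6 alternatives that tested it. The codes HSC-3 and HSC-4 occur in both series, and what a code stands for is not given. Added after the data were seen, an edgeR fit of these 4 sets with the code as replicate block called 0 genes, as did the same 4 sets without the block, and Ccng1 was 1.18 (adjusted p = 0.8291) with it. Across 16476 genes the difference between the 2 codes correlated at 0.024 between the series. Noise in sums of sparse single cells also lowers such a value, so it cannot show whether a code means the same in both series. The plate comparison already had the code as covariate.

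At 2.8 reads for 10 CPM in the median cell, shares of 0 in a set, counted as 3 cells, allow 6.52% to 13.6% of its cells. In simulated data edgeR recovered 6%, 32%, 50% and 62% of 4-, 16-, 64- and 256-fold changes between the series and 8%, 52%, 54% and 74% between the plates, so 4-fold changes were mostly not recovered.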
